A study of Mus musculus with 10 samples.

Results

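The COPII coat genes of the mouse were examined in embryonic stem (ES) cells depleted of the RNA-binding protein Rbfox2. They are Sar1a, Sar1b, Sec23a, Sec23b, Sec24a, Sec24b, Sec24c, Sec24d, Sec13 and Sec31a, taken by symbol from the deposited expression table. The 10 symbols had 11 of the 26857 entries in that table, because Sec24c was listed more than once, and 10 of the 11 lay among the 12632 expressed entries, those with a mean of at least 1 FPKM. FPKM counts the fragments on a transcript per kilobase of its length, scaled to the number mapped. The set was chosen by the knockdown-against-control FPKM intervals of Sar1a, which did not overlap, together with the family to which Sar1a belongs, so every knockdown-against-control value of the coat genes below is a description and carries no test.

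RNA-seq was made from V6.5 ES cells grown on gelatin in serum with ESGRO and infected with lentivirus carrying 1 of 2 hairpins to Rbfox2 (shFox2-1, shFox2-2) or 1 of 2 control hairpins (shLuc, against luciferase, and shGFP). Each hairpin had 2 libraries, from duplicate infections, and all 8 libraries came from cells kept in puromycin at 1 µg/ml for 3 days and then without it for 24 h, so the controls carried the virus and the selection too. For iCLIP, which maps where a protein was crosslinked to RNA by ultraviolet light, the same cell line carried a doxycycline-inducible human RBFOX2 with a FLAG-HA tag (FHFOX2) or without a tag (UntagFOX2), with 1 library each. Both libraries had 16 cycles of PCR and UntagFOX2 had 7 more, so every fold over UntagFOX2 compares libraries that were amplified differently. The cells of both iCLIP libraries had been selected in hygromycin at 150 µg/ml for 6 days. They were given doxycycline at 1 µg/ml for 24 h and crosslinked at 150 mJ/cm2. Thus iCLIP reports the binding of an introduced human protein at the level set by induction. The expression table gives 1 value for each hairpin, pooled by the authors over its libraries, with a lower and an upper bound, and no value for a single library.

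COPII is the coat that forms vesicles at exit sites of the endoplasmic reticulum (ER) and carries newly made secretory and membrane proteins towards the Golgi. The small GTPase Sar1 starts assembly: in its GTP-bound form it inserts into the ER membrane and recruits the inner coat, a Sec23-Sec24 dimer. Sec23 stimulates the GTPase of Sar1, Sec24 binds cargo, and the outer cage of Sec13 and Sec31 then polymerises over the inner coat and speeds GTP hydrolysis further. Mammals have more than 1 gene for Sar1, Sec23 and Sec24, and the Sec24 paralogs differ in the cargo signals that they bind.

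Promoter sequences are shown first because a 7-letter word recurred in them. The windows, from RefSeq on GRCm38.p6, run from 250 bases before to 50 bases after each annotated start site, and all 10 genes matched, with 12 windows. The word ACGTGGC, searched on both strands as ACGTGGC or GCCACGT, was chosen after these sequences had been read. Its count in them is thus a description and no test of enrichment. It lay in 6 of the 10 genes (Sar1a, Sec23a, Sec24c, Sec24d, Sec13 and Sec31a), against 5.19% of 6664 expressed genes with a window and 2.58% of all 32851 windows. In the lines that follow each sequence is 30 bases on the strand of the gene, 5′ to 3′, and the capitals mark the word or its reverse complement.
Sar1a: tgacagacgctGCCACGTcttaccccgctt
Sec23a: cctcccctttgACGTGGCagaggcggcacc
Sec24c: gcctaaggccgACGTGGCagaaggagtggc
Sec24d: ccgggcgcctgACGTGGCactagcaaccca
Sec13: cgttttgagctGCCACGTccgaggccgtgg
Sec31a: gggctgcggctGCCACGTtggagcggagcg

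Counted from the start site as position 0, the first base of the word was at -158 in Sar1a, -75 in Sec24c, -24 in Sec24d, -3 in Sec13, 8 in Sec23a and 12 in Sec31a. Sar1a thus had it farthest from the start, and 5 of the 6 had it within 100 bases. The word lies on the strand of the gene in Sec23a, Sec24c and Sec24d and on the opposite strand in Sar1a, Sec13 and Sec31a. The whole stretch before the Sar1a start is given because Sar1a is the gene whose RNA level stood apart (chr10:61680035-61680284, GRCm38.p6, plus strand, the word in capitals).
Sar1a upstream: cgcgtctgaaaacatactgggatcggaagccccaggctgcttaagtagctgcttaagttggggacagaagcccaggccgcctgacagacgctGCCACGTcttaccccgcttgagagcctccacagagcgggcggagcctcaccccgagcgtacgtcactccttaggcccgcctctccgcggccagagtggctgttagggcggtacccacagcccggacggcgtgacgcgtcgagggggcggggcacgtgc

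Other words known from ER stress and cAMP signalling were searched in the same way on both strands. TGACGTGG, the core of the element bound by Atf6 and Xbp1, was present in Sec23a and Sec24d, against 1.07% of expressed genes. It overlaps the 7-letter word, which both genes hold, so its count is not independent of that choice and is no test either. CCACG, the second part of the ER stress response element and contained in the 7-letter word, was present in 7 of 10 genes, against 54.4% of expressed genes, so its count lies near the background. TGACGTCA, the cAMP response element, was in 0 of 10 windows, against 3.87% of expressed genes. Of the 4 genes whose both knockdown values lay above both control values (given below), Sar1a and Sec31a hold the 7-letter word and Sec23b and Sec24b do not.

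The target of the hairpins was examined as a check of the labels. Rbfox2 (listed as Rbm9) stood at 8.56 FPKM in shFox2-1 and 7.21 FPKM in shFox2-2, against 24.7 FPKM in shLuc and 23.3 FPKM in shGFP. The mean of the knockdown hairpins was thus 32.9% of that of the controls, and the limma adjusted p was 0.913 over 20281 tested genes and 0.0471 over the 12632 expressed genes. The ES cell label was borne out by its markers, of which 9 of 9 were expressed, with summed levels of 1696 FPKM in shFox2-1 and 1374 FPKM in shFox2-2, against 1371 FPKM in shLuc and 1525 FPKM in shGFP. Summed markers of fibroblast, endoderm, mesoderm and neural cells lay between 1.80 and 11.8 FPKM in every hairpin, and those of trophoblast were 20.0 and 11.3 FPKM in shFox2-1 and shFox2-2, against 11.5 and 13.1 FPKM in shLuc and shGFP. Most of the trophoblast sum was 1 gene, Tfap2c, at 15.1 and 8.24 FPKM in shFox2-1 and shFox2-2, against 8.61 and 9.69 FPKM in shLuc and shGFP. Depth is unknown, since the table holds no counts. Relative to the mean over hairpins, the median expressed gene lay at 0.09 in shFox2-1 and -0.10 in shFox2-2, against -0.03 in shLuc and 0.05 in shGFP, on the log2 scale, so values centred on that median are given below where they differ.

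The coat genes covered a wide range of levels in these cells. Sec31a (mean over the 4 hairpins 55.7 FPKM) and Sec23b (53.6 FPKM) were the most abundant, and their intervals overlapped in every hairpin. Sar1a followed at 42.0 FPKM, below Sec23b with intervals apart in 2 of 4 hairpins, and Sec13 at 35.4 FPKM, below Sar1a in 2 of 4 hairpins. Sec24b (19.5 FPKM) lay below Sec13, with intervals apart in 4 of 4 hairpins, and Sec24c (16.8 FPKM) below Sec24b in 1 of 4. Sar1b (9.81 FPKM) was below Sec24c in 4 of 4 hairpins and was not separable from Sec23a (9.25 FPKM) in any. Sec24d (6.65 FPKM) and Sec24a (4.67 FPKM) closed the order, with Sec24d apart from Sec23a in 1 hairpin and from Sec24a in 2. One paralog of each pair was thus the main transcript, Sar1a over Sar1b and Sec23b over Sec23a, while the Sec24 family was spread over 4 genes. The Sec31a entry is listed together with LOC100041797 and may hold reads of both, and how reads shared by close paralogs were counted is not given in the sources used here.

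**Figure D1:**
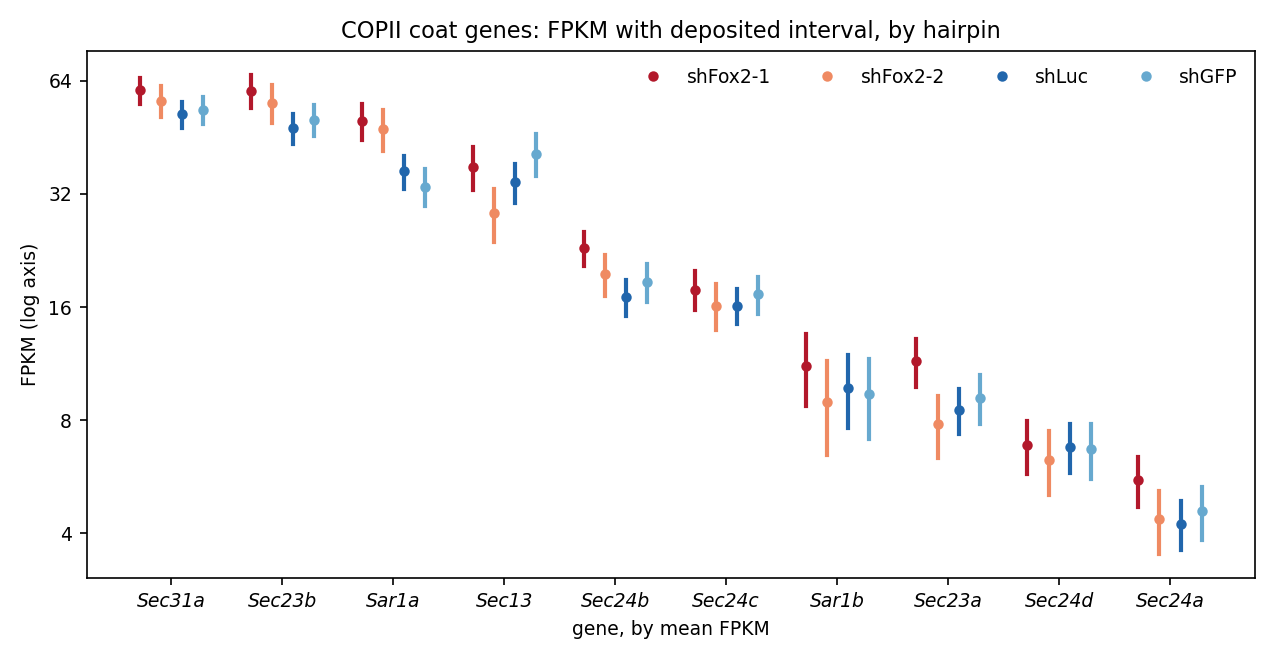
FPKM of the 10 expressed coat genes on a log axis, ordered by mean. Points are the authors' pooled values for shFox2-1, shFox2-2, shLuc and shGFP and bars run from the deposited lower to the upper bound. Sar1a is the only gene with both knockdown bars (from 41.6 FPKM upwards) above both control bars (up to 40.5 FPKM).

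Sar1a (mm9, chr10:61143029-61156045), the more abundant of the GTPase genes that start coat assembly, stood at 50.1 FPKM in shFox2-1 (interval 44.6 to 55.6) and 47.6 FPKM in shFox2-2 (41.6 to 53.6). In the control hairpins it stood at 36.8 FPKM in shLuc (33.0 to 40.5) and 33.5 FPKM in shGFP (29.7 to 37.2). Both knockdown hairpins were high and both controls low, with no overlap of the intervals. The mean of the knockdown hairpins was 139% of that of the controls. On the log2(FPKM + 1) scale, used for every fold change here, the difference was 0.47 (standard error 0.11). Standard errors here are those of limma, which draws the spread of each gene towards that of genes of similar level. They are not the spread of the gene alone. Sar1a was chosen on this difference, so its error serves as no test. A higher RNA level in a bulk sample can come from more cells that express the gene or from more RNA in each cell, and these cannot be told apart here.

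The separation of Sar1a was narrow. The lowest knockdown bound was 2.73% above the highest control bound, a gap of 1.10 FPKM, and the next gene by this measure, Sec23b, had its lowest knockdown bound at 49.3 FPKM and its highest control bound at 55.1 FPKM, an overlap. Only 22 of 12632 expressed genes, or 0.174%, had both knockdown intervals above both control intervals, 15, or 0.119%, had both below, and either was the case for 0.293%. With hairpins centred on the median gene these counts became 31 higher and 8 lower, and Sar1a remained apart, with centred differences from the control mean of 0.42 in shFox2-1 and 0.53 in shFox2-2. Among the coat genes, 1 of 10 was separated higher and 0 lower. Taken singly, shFox2-1 lay above both control intervals in 1 coat gene and below them in 0 (5.44% and 2.11% of expressed genes), and shFox2-2 likewise in 1 and 0 (0.348% and 1.98%). The control intervals of shGFP and shLuc were apart from each other in 0 of the 10, against 1.19% of expressed genes. Because Sar1a was taken up for its knockdown-against-control difference, nothing is read from the counts. By log2 fold change 135 of the expressed genes had larger values than Sar1a.

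Sar1b (mm9, chr11:51577204-51605425), which carries the same GTPase activity and is the paralog mutated in human chylomicron retention disease, gave no such pattern. It stood at 11.1 FPKM in shFox2-1 (8.71 to 13.6) and 8.96 FPKM in shFox2-2 (6.46 to 11.5), against 9.75 FPKM in shLuc (7.61 to 11.9) and 9.37 FPKM in shGFP (7.11 to 11.6). The 4 intervals overlapped throughout, and the log2 fold change of 0.06 was smaller than its standard error of 0.16. The bounds of Sar1b lie at 21.9% to 28.0% from the value, against 10.1% to 12.6% for Sar1a, so Sar1b was measured less precisely.

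The ratio of Sar1a to Sar1b, which does not depend on the scaling between hairpins, was 4.49 in shFox2-1 and 5.31 in shFox2-2, against 3.77 in shLuc and 3.57 in shGFP. Sar1a made up 81.8% and 84.2% of the summed Sar1 FPKM in shFox2-1 and shFox2-2, against 79.0% and 78.1% in shLuc and shGFP. Both knockdown ratios were above both control ratios. If each ratio is bounded by the opposite limits of the 2 genes, it ran from 3.28 to 6.38 in shFox2-1 and from 3.63 to 8.31 in shFox2-2, against 2.78 to 5.32 in shLuc and 2.55 to 5.24 in shGFP, so the ratios overlap once the error of Sar1b is carried.

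**Figure D2:**
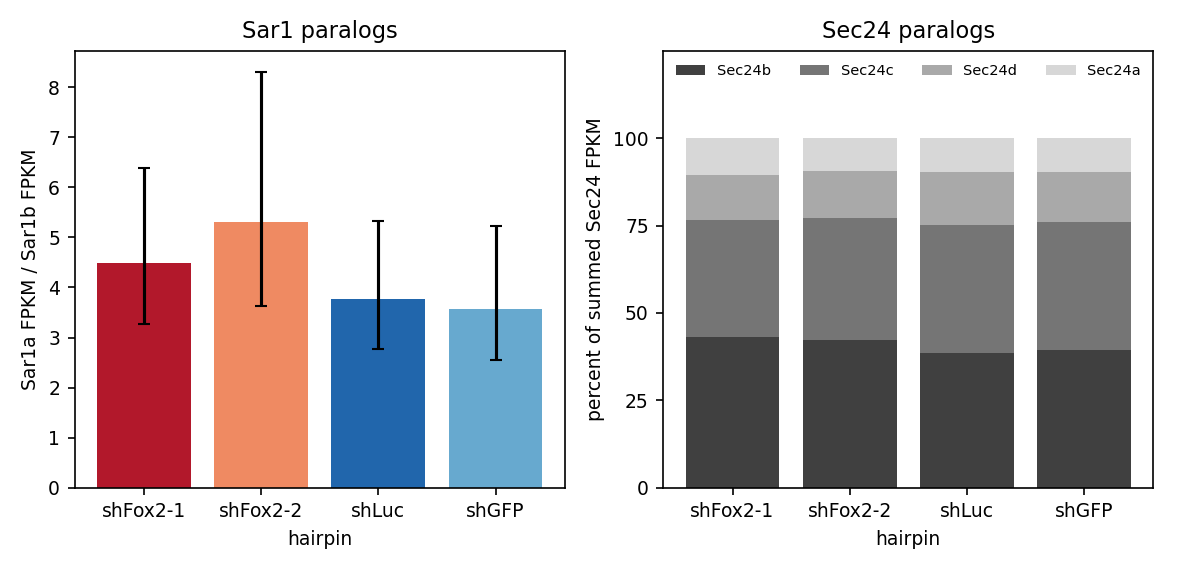
Left, Sar1a FPKM divided by Sar1b FPKM in each hairpin, with bars to the ratios of opposite bounds. The ratio is 4.49 and 5.31 in the knockdown hairpins and 3.77 and 3.57 in the controls, and the bars overlap. Right, share of summed Sec24 FPKM held by each Sec24 gene, with Sec24b at 43.2% and 42.2% in the knockdown hairpins and 38.5% and 39.5% in the controls.

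Sec23a and Sec23b encode the inner coat subunit that activates the Sar1 GTPase. Sec23b (mm9, chr2:144381987-144416479) stood at 60.4 FPKM in shFox2-1 (54.2 to 66.5) and 55.8 FPKM in shFox2-2 (49.3 to 62.3), against 47.8 FPKM in shLuc (43.4 to 52.3, marked by the authors' table as low in data) and 50.4 FPKM in shGFP (45.7 to 55.1). Both knockdown values were above both control values, but the intervals overlapped, with a log2 fold change of 0.24 (standard error 0.11).

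Sec23a (mm9, chr12:60059371-60113004) stood at 11.5 FPKM in shFox2-1 (9.82 to 13.1) and 7.82 FPKM in shFox2-2 (6.35 to 9.29), against 8.52 FPKM in shLuc (7.35 to 9.70) and 9.17 FPKM in shGFP (7.79 to 10.6). The hairpins against Rbfox2 disagreed here: shFox2-1 was the highest of the 4 and shFox2-2 the lowest, with their intervals apart, and the value in shFox2-1 was 46.7% higher. Sec23a was the only coat gene whose knockdown intervals were apart, 1 of 10 against 14.9% of expressed genes, or 13.0% with shFox2-1 the higher. It lost that after centring, which brought the background to 11.1%. Sec23b was 5.26 and 7.14 times as abundant as Sec23a in shFox2-1 and shFox2-2, against 5.61 and 5.50 times in shLuc and shGFP.

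The Sec24 genes encode the cargo-binding subunit. Sec24b (mm9, chr3:129686103-129763825) stood at 23.0 FPKM in shFox2-1 and 19.6 FPKM in shFox2-2, against 17.0 FPKM in shLuc and 18.6 FPKM in shGFP. Both knockdown values exceeded both control values, with overlapping intervals and a log2 fold change of 0.24 (standard error 0.14). Sec24c (mm9, chr14:21493565-21522247) had 17.8 and 16.1 FPKM in shFox2-1 and shFox2-2, against 16.1 and 17.3 FPKM in shLuc and shGFP, a log2 fold change of 0.02. A second entry of Sec24c at the same locus held between 0.065 and 0.37 FPKM and was not counted as expressed.

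Sec24a and Sec24d were the scarcer cargo-binding genes. Sec24a (mm9, chr11:51505765-51570660) had 5.54 and 4.35 FPKM in shFox2-1 and shFox2-2, against 4.24 and 4.57 FPKM in shLuc and shGFP, and the authors' table marks 3 of these 4 values as low in data. Sec24d (mm9, chr3:122970414-123068554) had 6.85 and 6.26 FPKM in shFox2-1 and shFox2-2, against 6.79 and 6.71 FPKM in shLuc and shGFP. Neither gene showed an order between knockdown and control hairpins. Of the summed Sec24 FPKM, Sec24b held 43.2% and 42.2% in shFox2-1 and shFox2-2, against 38.5% and 39.5% in shLuc and shGFP, and Sec24c held 33.5% and 34.9%, against 36.5% and 36.6%. Sec24d held 12.9% and 13.5%, against 15.4% and 14.2%, and Sec24a between 9.39% and 10.4% in all hairpins. No error was carried into these shares.

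Sec13 and Sec31a encode the outer cage. Sec31a (mm9, chr5:100790664-100858536) stood at 60.4 FPKM in shFox2-1 (55.5 to 65.3) and 56.6 FPKM in shFox2-2 (51.2 to 62.0), against 52.2 FPKM in shLuc (48.0 to 56.4) and 53.5 FPKM in shGFP (49.2 to 57.9). Both knockdown values lay above both controls with overlapping intervals and a log2 fold change of 0.14 (standard error 0.10). Sec13 (mm9, chr6:113678046-113690675), whose product is also part of the nuclear pore, stood at 37.8 FPKM in shFox2-1 (32.9 to 42.7) and 28.4 FPKM in shFox2-2 (23.8 to 33.1), against 34.4 FPKM in shLuc (30.3 to 38.5) and 41.0 FPKM in shGFP (35.8 to 46.1).

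Sec13 thus had the lowest value in shFox2-2 and the highest in shGFP, and the other hairpins of each kind lay between them. Its log2 fold change of -0.19, the lowest of the coat genes, came with a standard error of 0.18. The ratio of Sec31a to Sec13, whose products form the cage in equal numbers, was 1.60 and 1.99 in shFox2-1 and shFox2-2, against 1.52 and 1.31 in shLuc and shGFP. The errors of these genes were not carried into the ratio, so no shift is read from it.

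Taken by counts, 4 coat genes (Sar1a, Sec23b, Sec24b and Sec31a) had both knockdown values above both control values and 0 had both below. Among expressed genes 14.3% had both above and 17.8% both below. Sar1a was chosen on this contrast, so its place among the 4 was fixed in advance. It is also in every other count, median and sum of this paragraph, and nothing is read from them. The median log2 fold change over the 10 genes was 0.11, against -0.01 over all expressed genes. The hairpins differed in this: the coat median was 0.24 in shFox2-1 and -0.03 in shFox2-2, against 0.07 and -0.09 for all expressed genes. All 10 genes were higher in shFox2-1 than in shFox2-2, as were 69.6% of expressed genes. The value was above the control mean for 10 coat genes in shFox2-1 and 4 in shFox2-2, against 62.1% and 33.1% of expressed genes. After centring it was above for 8 and 7, against 50.6% and 49.1% of expressed genes. Summed over the 10 genes, FPKM was 284 in shFox2-1 and 252 in shFox2-2, against 234 in shLuc and 244 in shGFP. Of these sums Sar1a made up 50.1 and 47.6 FPKM, against 36.8 and 33.5 FPKM. The sums of shFox2-2 and shGFP differ by less than Sar1a alone does, so their order is not a trait of the other coat genes.

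**Figure D3:**
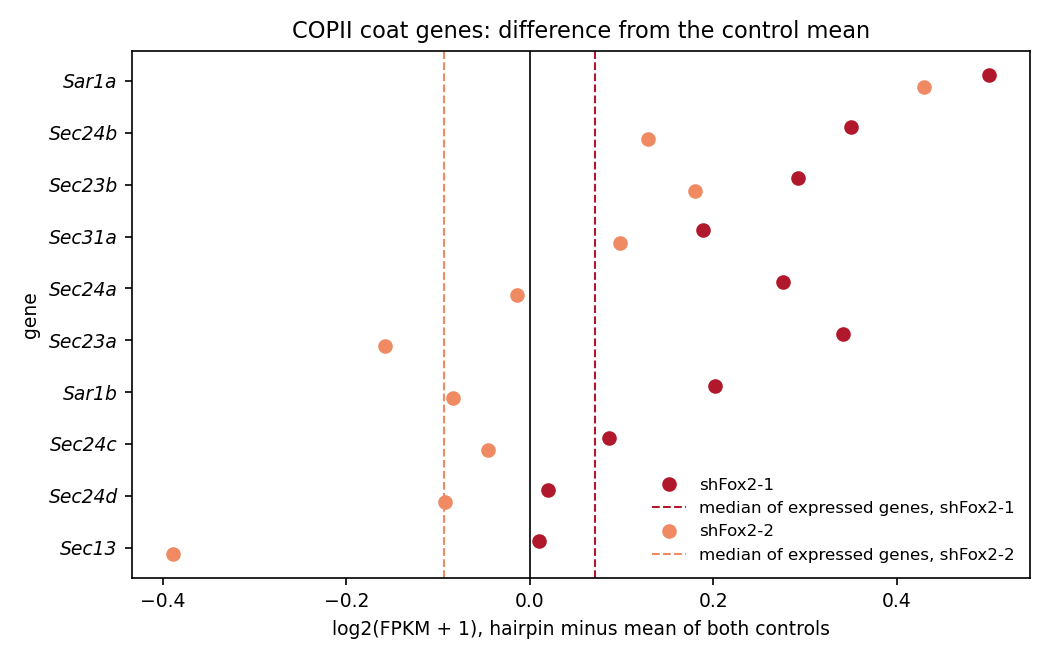
Difference of each knockdown hairpin from the mean of both controls on the log2(FPKM + 1) scale, for the 10 coat genes ordered by their mean difference, with Sar1a at the top. Dashed lines are the medians of all expressed genes, at 0.07 for shFox2-1 and -0.09 for shFox2-2. All 10 points of shFox2-1 lie to the right of those of shFox2-2, and Sar1a is farthest right in both.

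Binding of RBFOX2 to the coat transcripts was read from the authors' list of 35639 iCLIP clusters in mm9, each with its coverage in FHFOX2, its fold over UntagFOX2 and a q-value, all the authors' own values. Clusters were assigned to a gene when they lay in its locus on its strand. A total of 40 clusters lay in the coat loci, and 0 on the opposite strand. Of the 40, 28 (70.0%) had a fold of at least 2 over UntagFOX2 or were absent there, against 88.3% of the whole list. The whole list is not restricted to expressed genes, and 15 of the 40 lie in Sec31a alone, so nothing is read from this difference. At least 1 cluster was found in 8 of the 10 loci, against 62.5% of 6645 expressed genes with a known strand. Sec13 and Sec24d had none, which with a list that holds only coverages of 148 or more sets no limit on weaker binding. The FHFOX2 library is a single library, so no cluster has a replicate, and whether a cluster lies in an exon, an intron or a UTR is not given because mm9 gene models were not used here.

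Sec31a had 15 clusters, a number that 3.01% of the 6645 genes reached or passed. The strongest, at chr5:100800200-100800704, had a coverage of 5830 and a fold of 10.43 over UntagFOX2, and the next, at chr5:100802043-100802414, had 2332 and 10.41. A further cluster, at chr5:100790823-100790969 and 159 bases from the 3′ end of the locus, had a coverage of 1250 and a fold of 1.24. One of the 15, at chr5:100853232-100853292, carries a gene ID in the authors' list for which no current symbol was found.

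Both Sec24b and Sec24c held clusters of high coverage. Sec24c had 5 clusters, all between 36.1% and 40.6% of the locus length. Its strongest, at chr14:21504460-21504811, had a coverage of 4690 and a fold of 8.39, followed by chr14:21505054-21505358 with 1563 and 6.98. Sec24b had 7 clusters, and the strongest, at chr3:129760639-129761024 and 3.85% of the locus length from the 5′ end, had a coverage of 2950 and a fold of 6.60. These clusters of Sec31a, Sec24c and Sec24b are the 3 of the 40 among the top 10% of the whole list by coverage. Over the whole list, which is not restricted to expressed genes, 44.9% of clusters were absent from UntagFOX2, and over the coat loci 22.5% were.

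Sar1a had 3 clusters of modest coverage. The one at chr10:61155170-61155305, 740 bases from the 3′ end of the locus, had a coverage of 475 and a fold of 4.24 over UntagFOX2. The others had a coverage of 397 with a fold of 1.17, at chr10:61150699-61150811, and of 150 with a fold of 1.34, at chr10:61143867-61143922. The first of the 3 ranks at the 59.2 percentile of the whole list by coverage, and 33.6% of the 6645 genes had as many clusters as Sar1a or more. Sar1b had 2 clusters, at 9.44% and 17.2% of its length from the 5′ end, with coverages of 464 and 247 and folds of 2.16 and 2.21.

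In Sec23a, Sec23b and Sec24a the cluster of highest coverage was close to the 3′ end. Sec23a had 3, the strongest at chr12:60060035-60060330 with a coverage of 2353 and a fold of 2.34, 664 bases from the 3′ end. Sec23b had 1, at chr2:144416206-144416368 and 111 bases from the end, with a coverage of 809 and a fold of 1.45. Sec24a had 4, of which the one at chr11:51506175-51506328, 410 bases from the end, had a coverage of 533 and a fold of 2.38, and the other 3 were absent from UntagFOX2 with coverages of 236 to 323. In all, 5 coat genes (Sar1a, Sec23a, Sec23b, Sec24a and Sec31a) had a cluster within 1 kb of the 3′ end, against 16.3% of the 6645 genes. Those of Sec23b (fold 1.45) and Sec31a (fold 1.24) were under a fold of 2. The 6645 genes were not matched to the coat genes for RNA level, so no trait of the coat is read from this.

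Cluster numbers are set beside the fold changes both as counts and per length, because the loci run from 12.6 to 98.1 kb. Sar1a, with the largest log2 fold change (0.47), had 3 clusters in a short locus, or 2.30 per 10 kb, the highest density of the coat genes. Sec31a (0.14) had 15 clusters, or 2.21 per 10 kb, and Sec24c (0.02) had 5, or 1.74 per 10 kb. Sec24b (0.24) had 0.90 per 10 kb, the other coat genes with a cluster had between 0.29 and 0.71, and Sec13 (-0.19) and Sec24d (-0.04) had none. The median over the expressed genes with a cluster was 0.90 per 10 kb. This is a description over 10 genes, and 2 of the 3 clusters of Sar1a had a fold under 2. With a fold of at least 2 required, Sar1a kept 1 cluster in 13.0 kb, Sec31a 11 in 67.9 kb and Sec24c 3 in 28.7 kb. Sar1a then no longer had the highest density.

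The rest of the early secretory pathway was described with 5 lists of 94 genes, of which 90 were tested and 87 expressed. limma called 0 of the 90 at an adjusted p of 0.05, as it called 0.00% of all 20281 tested genes, and 3 of the 90 had an unadjusted p under 0.05, where 908, or 4.48%, of all genes did. By intervals 1 of 87 was separated higher and 0 lower, against 0.174% and 0.119% of all expressed genes. Both knockdown values lay above both control values (ordered higher) in 21 of the 87 and below them (ordered lower) in 8, against 14.3% and 17.8% of all expressed genes, and the shares for each list are to be read against these. The separated gene was Ssr3, a subunit of the TRAP complex that assists protein translocation into the ER. It stood at 102 and 103 FPKM in shFox2-1 and shFox2-2, against 84.8 and 81.8 FPKM in shLuc and shGFP, and was not separated after centring.

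Genes that assemble the coat or build ER exit sites had 2 of 9 expressed members with both knockdown values above both controls, and 0 below, with a median log2 fold change of 0.04. Both are also the most abundant of the list. Tfg, which organises exit sites, had 51.5 and 47.2 FPKM in shFox2-1 and shFox2-2, against 45.6 and 46.5 FPKM in shLuc and shGFP. Cul3, the scaffold of a ubiquitin ligase that acts on Sec31, had 83.4 and 71.6 FPKM in shFox2-1 and shFox2-2, against 64.2 and 68.5 FPKM in shLuc and shGFP. For ER export cargo receptors 5 of 18 were ordered higher and 0 lower (14.3% and 17.8% of all expressed genes), with a median of 0.10. Ergic1, a protein of the ER-Golgi intermediate compartment, had 44.7 and 48.3 FPKM in shFox2-1 and shFox2-2, against 43.9 and 41.8 FPKM in shLuc and shGFP. Cnih, the cornichon export receptor gene, had 44.1 and 56.1 FPKM, against 42.5 and 44.5 FPKM.

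The SNARE and tether list, which serves vesicle tethering and fusion between the ER and the Golgi, had 5 of 26 ordered higher and 2 lower, with a median of 0.07. Rab1, the GTPase that recruits tethers, had 76.5 and 54.7 FPKM in shFox2-1 and shFox2-2, against 52.8 and 57.9 FPKM in shLuc and shGFP. Gorasp2, a Golgi stacking protein gene, had 52.9 and 53.4 FPKM in shFox2-1 and shFox2-2, against 45.0 and 48.2 FPKM in shLuc and shGFP. COPI, the coat of the return path, had 6 of 18 ordered higher and 1 lower (14.3% and 17.8% of all expressed genes), with a median of 0.08. Its GTPase Arf1 had 141 and 161 FPKM in shFox2-1 and shFox2-2, against 127 and 131 FPKM in shLuc and shGFP, and the coat subunit gene Copz1 had 83.5 and 88.8 FPKM, against 77.0 and 85.5 FPKM. The translocon and signal recognition list had 3 of 16 ordered higher and 5 lower, with a median of -0.06.

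**Figure D4:**
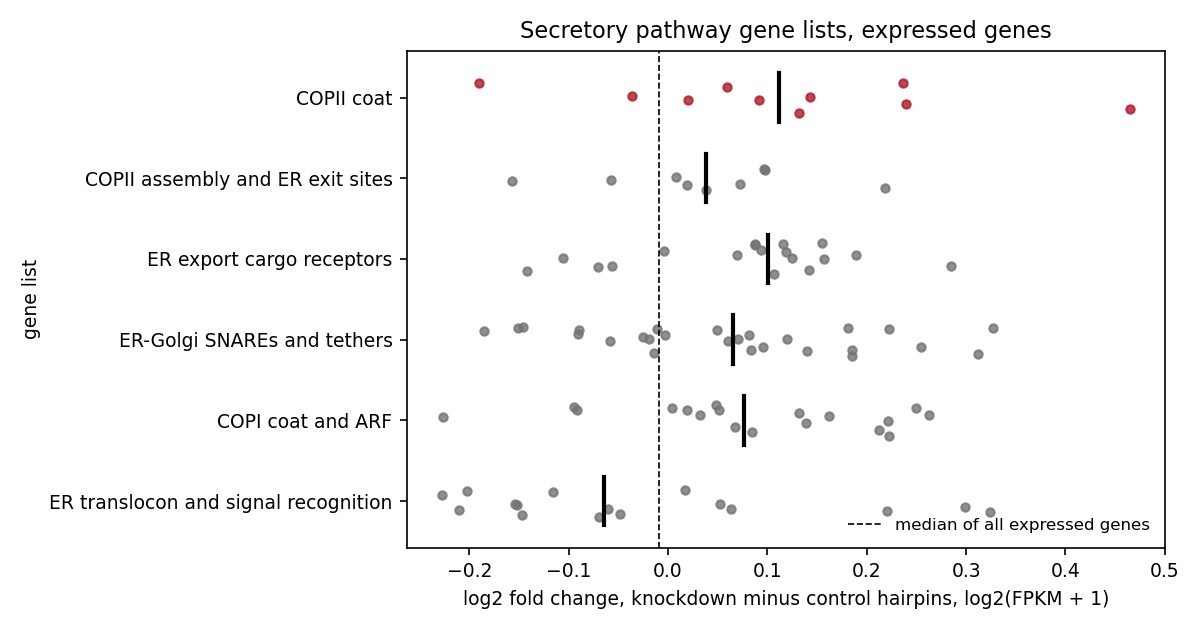
Log2 fold change of each expressed gene, knockdown minus control hairpins on the log2(FPKM + 1) scale, for the coat genes (top row) and 5 lists of the early secretory pathway. Vertical bars are list medians and the dashed line is the median of all expressed genes at -0.01. Sar1a, at 0.47, is the point farthest right among all the rows.

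Genes whose pattern over the 4 hairpins was most like that of Sar1a were found among 7993 genes of at least 5 FPKM, by the Euclidean distance of centred log2(FPKM + 1) values. The 5 nearest were Limk2 (distance 0.09), a kinase of cofilin, then Ndrg3 (0.09), Slc16a6 (0.11), a member of the monocarboxylate transporter family, Pde7a (0.11), a cAMP phosphodiesterase, and Pccb (0.11), a subunit of propionyl-CoA carboxylase. Limk2 stood at 31.3 and 27.3 FPKM in shFox2-1 and shFox2-2, against 21.7 and 20.1 FPKM in shLuc and shGFP, and was the only one of these 5 genes with separated intervals. The nearest coat gene, Sec23b, ranked 326 with a distance of 0.27. The likeness rests on 4 values for each gene.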

How the data were processed

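For each gene the authors deposited, per the file headers, 1 FPKM value and its lower and upper bound for every hairpin, with 2 libraries pooled. The submitters' processing notes name TopHat2 2.0, Cufflinks 2.1.1 and mm9. No annotation, confidence level or scaling between hairpins is stated. The iCLIP clusters were deposited by the authors with coverage, fold over the untagged library and q-value in 1 name field, per the file headers.

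From these, log2(FPKM + 1) was compared between 2 knockdown and 2 control hairpins with limma 3.58.1 (R 4.3.3, mean trend, Benjamini-Hochberg adjustment) over 20281 entries. Left out were 105 without a valid status and 6477 at 0 throughout, with some entries in both groups. A gene was called separated when both knockdown intervals lay above, or both below, both control intervals. Centring divided each hairpin by its median gene. Members and lists were chosen with earlier results of these data known. The text names all 10 coat genes, Rbfox2, up to 4 separated members of each list (otherwise its 2 of highest FPKM), the 5 genes most like Sar1a, and up to 3 clusters per gene. With 2 hairpins a group, p-values rest on the spread between hairpins, which limma draws towards that of genes of similar level. The spread between duplicate infections does not enter them.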

Additional observations from a re-analysis of the deposited data

How the results depend on the processing

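Sar1a was still separated after centring. Leaving out a hairpin could not end its separation, since both knockdown intervals already lay above both control intervals, and is no support for it. Its log2 fold change was 0.40 to 0.53 with 1 hairpin left out, 0.48 with a pseudocount of 0.1 and 0.48 after centring. No paired analysis was possible because the deposited values pool the duplicate libraries of each hairpin. limma called 0 genes, with 908 at an unadjusted p under 0.05, and 1 gene, Rbfox2, when restricted to a mean of at least 1 FPKM. The separated genes numbered 37 and, with 1 hairpin left out, 106 to 954 (294 without shFox2-1, 954 without shFox2-2, 106 without shLuc and 118 without shGFP), where fewer intervals had to be apart. After centring there were 39, of which 20 were among the 37. The sign of the small fold changes depended on single hairpins. With 1 hairpin left out the log2 fold change ran from -0.084 without shFox2-1 to 0.20 without shFox2-2 for Sar1b, and likewise from -0.16 to 0.34 for Sec23a, -0.013 to 0.28 for Sec24a, -0.045 to 0.086 for Sec24c, -0.093 to 0.020 for Sec24d and -0.39 to 0.0095 for Sec13. Sec24c was also negative, at -0.03, without shLuc. Over all alternatives 53 of 60 such values kept their sign and 7 were reversed, and the cause was not tested. For Sar1a, Sec23b, Sec24b and Sec31a no omission of a hairpin could reverse the sign, since both knockdown values exceeded both control values. The count of 53 is thus in part fixed in advance and is no measure of stability. With a fold of at least 2 required, 7 coat genes had a cluster in place of 8, since Sec23b was lost.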
